A study of Mus musculus with 8 samples.

Results

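The amyloid precursor family, its secretases and the regulator Itm2b were followed from young adult to aged mouse brain as 9 genes: App, Aplp1, Aplp2, Bace1, Psen2, Ncstn, Aph1a, Psenen and Itm2b. They were chosen by gene symbol, through the Ensembl identifier of each row of the gene count table, and the rule used no value, although earlier results of these data were known when they were chosen. All 9 were present among the 22430 genes of the table, and all 9 passed the filter on low counts that left 9375 genes for testing. Counts came from ONT direct RNA sequencing of whole brain hemispheres, in which every read is one RNA molecule and no amplification takes place. The groups were 4 young adult (6m) and 4 aged (24m) male C57Bl/6JRj mice, with 1 library per mouse. No genetic modification or treatment is named for either group. The tissue was a whole hemisphere, so every value is an average over regions and cell types, and fewer cells of a type cannot be told apart from less RNA per cell.

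App is a single-pass membrane protein of neurons and glia whose shedding by an α-secretase or by the β-secretase Bace1 is followed by cleavage inside the membrane by γ-secretase, a complex of a presenilin, nicastrin, an Aph1 protein and Pen-2. β- followed by γ-cleavage releases amyloid-β, the peptide of the plaques of Alzheimer's disease. Aplp1 and Aplp2 are processed in the same way but lack the amyloid-β sequence, and Itm2b (BRI2) binds App and limits its processing. Mouse amyloid-β differs from the human peptide and does not form plaques in unmodified mice.

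The kinship of the 3 precursors is visible in the end of their coding sequence, where each carries the internalization motif of its cytoplasmic tail, the site bound by the Apbb and Apba adaptors described further on. In GRCm39 the stretch lies in a coding exon on the minus strand of chr16:84752234-84752263 for App, chr7:30134730-30134759 for Aplp1 and chr9:31062182-31062211 for Aplp2. The 12 bases that code for the motif are in capitals.
App: tatgagAATCCAACTTACaagttctttgag
Aplp1: tatgagAACCCCACCTACcgcttcctggaa
Aplp2: tatgaaAACCCAACCTACaaatacctggag
Of these 30 bases App shared 21 with Aplp1 and 23 with Aplp2, and Aplp1 shared 23 with Aplp2. Over whole transcripts none of the 3 had another annotated gene matching at least 50 percent of its length at 95 percent identity or more.

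The young adult libraries held 573152 to 843706 counts and the aged libraries 660398 to 1255424, and the mean depth did not differ beyond the spread (p = 0.54, two-sided exact permutation test over the 4 and 4 libraries). A gene with 3 counts in a library lay at 2.30 to 5.42 CPM, the unit of level used throughout, in which counts are divided by the TMM-scaled library size. The first principal component, with 39.4 percent of the variance, separated the ages, and the second, with 17.2 percent, set aged replicate 1 apart from the other 7 libraries. The results for the members are therefore given with and without it wherever the call differs.

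With edgeR's quasi-likelihood test, App, Aplp2 and Itm2b rose with age at an adjusted p of at most 0.05, over a background of 12.3 percent of the tested genes that rose by this rule and 9.42 percent that fell. No member fell. None of the 9 also reached the absolute log2FC of 0.58 used to call a gene changed, against 14.5 percent of the tested genes. The count of 0 was the same with DESeq2 and limma-voom, and 4 members had an unadjusted p under 0.05, against 34.3 percent of the tested genes. Among the 2726 tested genes with a mean count of 50 or more, as abundant as most members, 33.9 percent passed the adjusted p alone in either direction. That share was like that of the members only when direction is left aside. The tested genes were also split by mean count into 5 bins of equal size. In the most counted bin, which held App, Aplp1, Aplp2, Psenen and Itm2b, 14.9 percent rose and 22.1 percent fell at this adjusted p. The median log2FC of that bin was -0.12. The median log2FC was 0.12 over the members and -0.003 over the tested genes, and 6 of the 9 members had a positive log2FC.

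**Figure D1:**
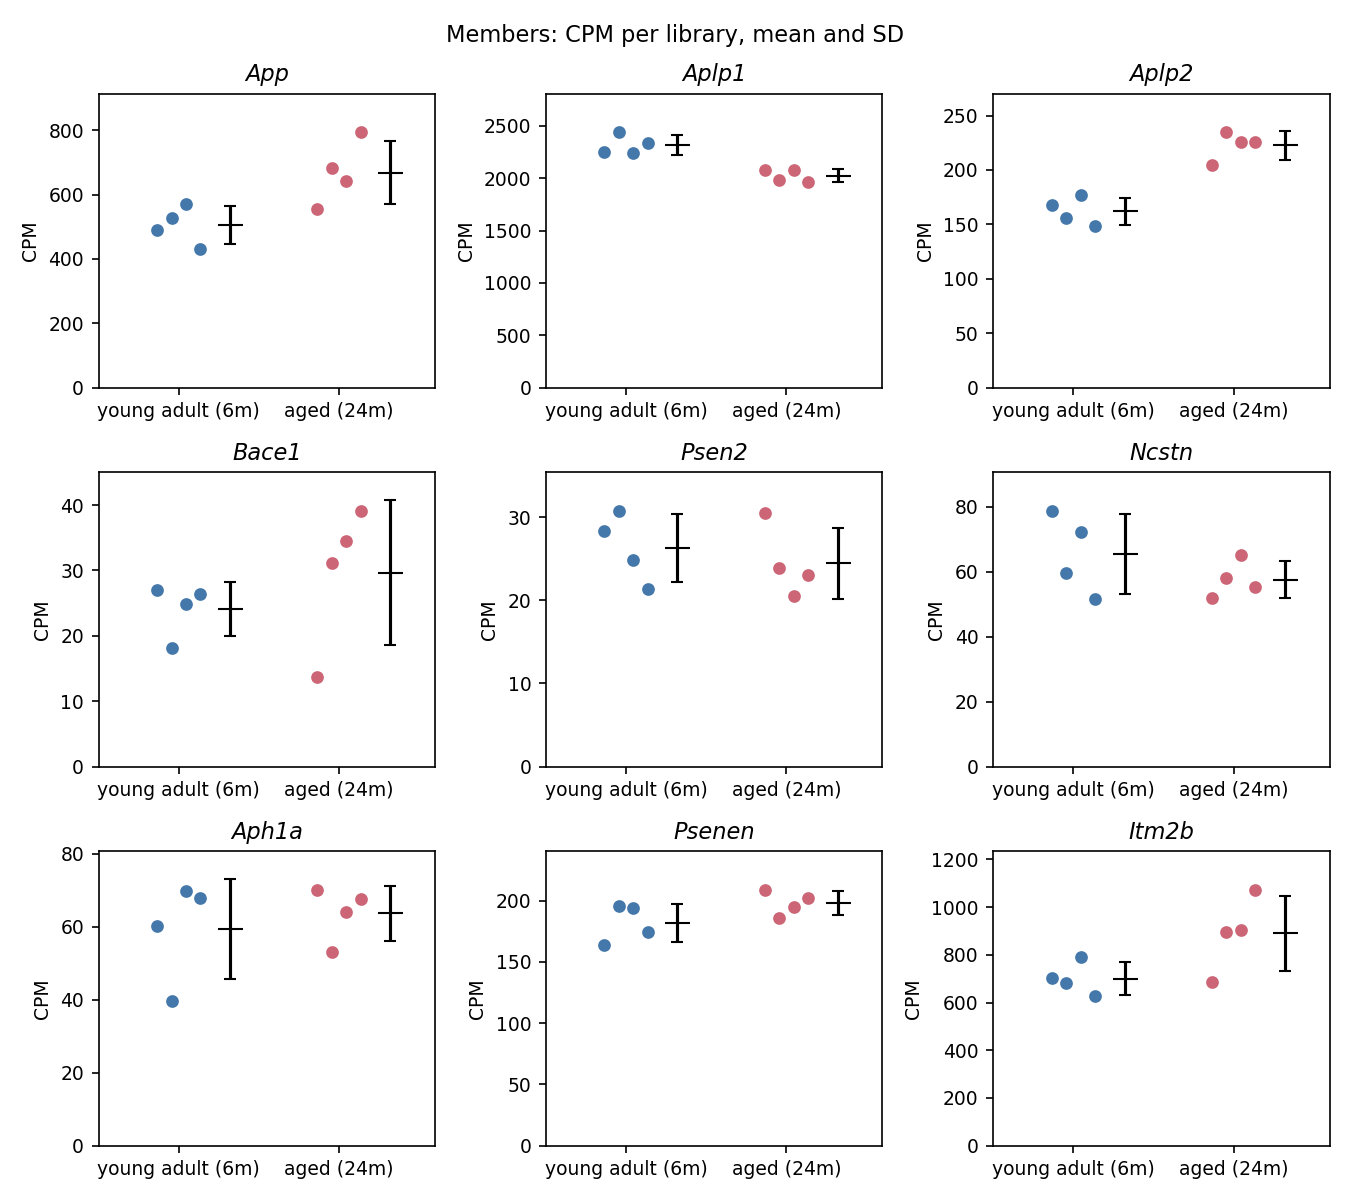
CPM of each member in the 4 young adult (blue) and 4 aged (red) libraries, 1 point per mouse in replicate order, with the mean and SD at the right of each group. The groups do not touch for Aplp2 (148.2 to 176.7 against 204.2 to 235.0 CPM) and Aplp1 (2237 to 2443 against 1961 to 2078 CPM), and overlap for the other members.

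App was counted at 489.9, 528.0, 571.3 and 432.0 CPM in the young adult libraries and at 556.3, 681.0, 641.1 and 794.7 CPM in the aged libraries. Aged replicate 1 was lower than the highest young adult library, and the other 3 aged libraries were above all young adult libraries. The mean rose from 505.3 ± 59.1 to 668.3 ± 99.0 CPM (SD over 4 mice per age), and edgeR gave a log2FC of 0.41 (SE 0.106, 95% interval 0.19 to 0.63) with an adjusted p of 0.0069. App passed the test in all 19 alternative settings, at log2FC of 0.33 to 0.55. Its counts were 292 to 459 in the young adult and 365 to 1036 in the aged libraries, so App was well above the depth limit. The gene spans chr16:84746573-84971126 on the minus strand, and its canonical transcript has 17 exons and a 3′ untranslated region of 5649 bases, longer than that of 97.5 percent of the tested genes.

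Aplp1, the family member found mainly in neurons, had the most reads of the members in every library. It was counted at 2250, 2443, 2237 and 2339 CPM in the young adult libraries and at 2078, 1982, 2076 and 1961 CPM in the aged libraries. All 4 aged libraries lay below all 4 young adult libraries, as they did for 9.96 percent of the tested genes. The means were 2317 ± 95.4 and 2024 ± 61.3 CPM (SD, n = 4 each). The log2FC of -0.20 (SE 0.082, 95% interval -0.36 to -0.03) did not pass edgeR's test after adjustment over all genes (adjusted p = 0.0901). It passed without aged replicate 1 (log2FC -0.20, adjusted p = 0.0128). With quantile normalization the sign turned, at a log2FC of 0.08 with both DESeq2 (adjusted p = 0.60) and limma-voom (adjusted p = 0.344), so the direction of Aplp1 on the scale of the whole library depends on the scaling. The gene lies at chr7:30134404-30145102, and its canonical transcript has a GC content of 61.3 percent, above that of 96.3 percent of the tested genes.

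Aplp2, the broadly expressed family member, was counted at 167.4, 155.5, 176.7 and 148.2 CPM in the young adult libraries and at 204.2, 235.0, 225.2 and 225.5 CPM in the aged libraries. Every aged library was above every young adult library, as for 11.1 percent of the tested genes. The mean rose from 162.0 ± 12.6 to 222.5 ± 13.0 CPM (SD over 4 mice per age), and edgeR gave a log2FC of 0.46 (SE 0.110, 95% interval 0.23 to 0.68) with an adjusted p of 0.0041. It passed in all 19 alternative settings at log2FC of 0.42 to 0.57, and aged replicate 1, the lowest of the aged libraries, did not decide the call. The gene lies at chr9:31053586-31123183.

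Within a library the make-up of the family does not depend on the scaling between libraries. Of the counts on the 3 precursors, Aplp1 held 77.4, 78.1, 74.9 and 80.1 percent in the young adult libraries and 73.2, 68.4, 70.6 and 65.8 percent in the aged libraries. App held 16.9, 16.9, 19.1 and 14.8 percent in the young adult and 19.6, 23.5, 21.8 and 26.7 percent in the aged libraries. Aplp2 held 4.97 to 5.92 percent and then 7.20 to 8.11 percent. For all 3 genes the ages did not overlap: the mean share of App was 16.9 ± 1.77 against 22.9 ± 2.97 percent, that of Aplp1 77.6 ± 2.15 against 69.5 ± 3.15 percent and that of Aplp2 5.43 ± 0.477 against 7.63 ± 0.375 percent (SD, n = 4 each). Leaving out any 1 library, the difference between the ages was 4.71 to 7.06 percentage points for App, -9.41 to -6.93 for Aplp1 and 2.04 to 2.36 for Aplp2. The 3 shares of a library sum to the whole, so they are one description and not 3 results, and they show unequal change without showing which gene moved. Counts of Aplp2 per count of App overlapped between the ages, at 0.322 ± 0.024 and 0.337 ± 0.037.

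**Figure D2:**
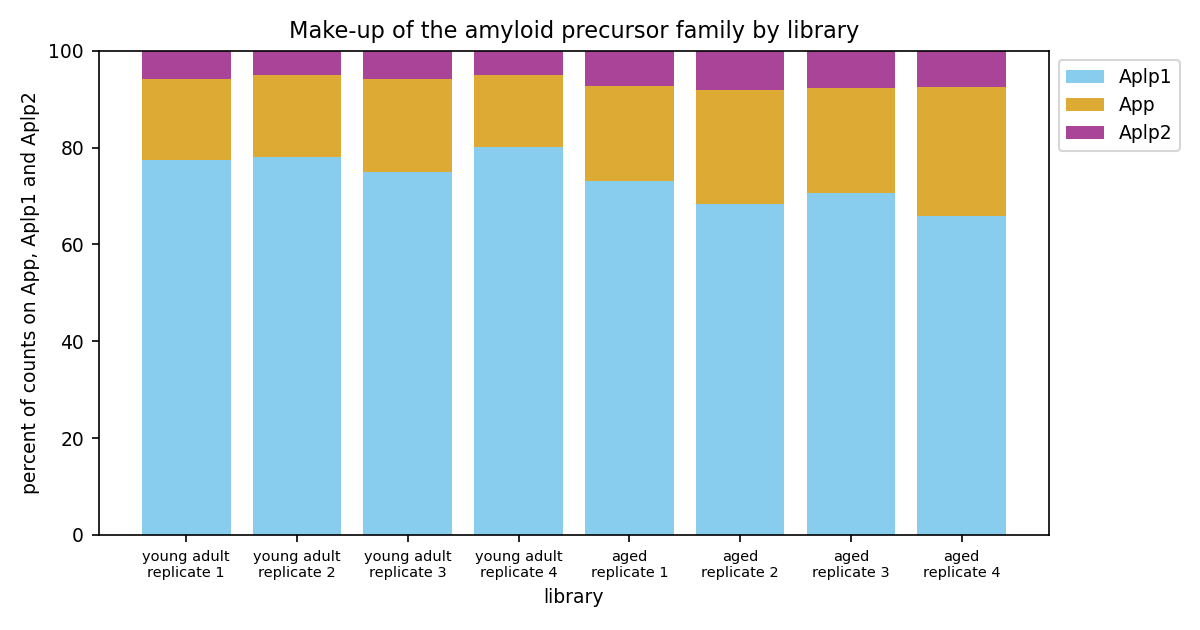
Percent of the summed App, Aplp1 and Aplp2 counts held by each gene, 1 bar per library. Aplp1 held 74.9 to 80.1 percent in the 4 young adult and 65.8 to 73.2 percent in the 4 aged libraries, with App and Aplp2 taking up the difference.

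Bace1, the β-secretase of neurons, was scarce. It was counted at 27.1, 18.1, 24.9 and 26.4 CPM in the young adult libraries, from 10 to 22 counts each, and at 13.7, 31.2, 34.6 and 39.1 CPM in the aged libraries, from 9 to 51 counts each. Aged replicate 1 was the lowest of all 8 libraries and the other 3 aged libraries were above every young adult library. The means of 24.1 ± 4.12 and 29.6 ± 11.1 CPM (SD, n = 4 each) gave a log2FC of 0.34 in edgeR's test. The 95% interval was -0.19 to 0.86 and the adjusted p 0.375. A difference was not detectable with these counts and this spread among libraries. Without aged replicate 1 the log2FC was 0.53 (adjusted p = 0.0758), and over all alternatives it ranged from 0.17 to 0.53 with adjusted p of 0.0758 to 0.735. Bace1 lies at chr9:45749834-45776173 on the plus strand, and 50.1 percent of its exon bases overlap Rnf214 on the opposite strand. Rnf214 was counted at 14.4 CPM in young adult and 20.1 CPM in aged libraries (log2FC 0.46, adjusted p = 0.272). Since the sources do not state whether strand was used in counting, reads of both genes may be mixed.

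The 4 γ-secretase subunits measured among the members did not pass the test. Psen2, a catalytic presenilin, was counted at 28.3, 30.7, 24.9 and 21.3 CPM in the young adult and 30.5, 23.9, 20.5 and 23.0 CPM in the aged libraries. Its log2FC was -0.11 (95% interval -0.59 to 0.37, adjusted p = 0.783), which leaves room for a change past the fold limit downward. Ncstn (nicastrin), which receives the substrate, was counted at 78.8, 59.7, 72.2 and 51.5 CPM and then at 51.8, 58.2, 65.3 and 55.2 CPM, with a log2FC of -0.19 (95% interval -0.53 to 0.14, adjusted p = 0.435).

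Aph1a, the scaffold subunit, was counted at 60.3, 39.8, 69.7 and 67.8 CPM in the young adult and 70.1, 53.0, 64.0 and 67.5 CPM in the aged libraries. Its log2FC of 0.07 (95% interval -0.28 to 0.42, adjusted p = 0.817) became -0.04 without young adult replicate 2, the shallowest library and its lowest value. Psenen (Pen-2), the small subunit that matures the complex, was counted at 163.7, 195.3, 194.2 and 174.5 CPM and then at 208.8, 186.1, 194.5 and 202.5 CPM. Its log2FC of 0.12 had a 95% interval of -0.10 to 0.35 (adjusted p = 0.455), which leaves out a change past the fold limit in either direction, as did the intervals of Ncstn and Aph1a.

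The proportions among the 4 subunits overlapped between the ages. Psenen held 54.7 ± 4.36 percent of their summed counts in young adult and 57.6 ± 0.742 percent in aged libraries, Aph1a 17.8 ± 3.97 and 18.5 ± 1.37 percent, Ncstn 19.6 ± 3.16 and 16.8 ± 2.11 percent, and Psen2 6.77 to 9.44 and 5.95 to 8.44 percent (SD, n = 4 each). The share of Psenen spread over 49.4 to 60.0 percent in young adult and over 56.5 to 58.1 percent in aged libraries. Several subunits share exon bases with neighbours: Psenen with U2af1l4 over 22.9 percent of its exon bases, Aph1a with Car14 over 12.6 percent and Ncstn with Copa over 3.64 percent. Psenen also shares 12.4 percent with Gm49396, whose mean, lowest and highest counts (72.1, 48 and 102) were the same as those of U2af1l4. Whether reads were counted for more than 1 gene was not tested. U2af1l4 (log2FC -0.34), Car14 (-0.48) and Copa (-0.33) had adjusted p of 0.085, 0.051 and 0.0495, and their part in the values of the subunits was not tested. An annotated noncoding RNA that was not in the count table matches 61.3 percent of the Aph1a transcript, which makes the level of Aph1a uncertain.

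The subunit genes are spread over the genome, with Psen2 at chr1:180054569-180091003, Ncstn at chr1:171893580-171910369, Aph1a at chr3:95801233-95805901 and Psenen at chr7:30261080-30263562. Psenen lies 116 kb from Aplp1, on the same strand, which was the closest pair among the members. Neither gene of this pair passed the test with all libraries. Their aged to young adult log2FC were 0.12 for Psenen, with an interval that included 0, and -0.20 for Aplp1. With quantile normalization both were positive.

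Itm2b was counted at 704.1, 679.9, 791.6 and 625.4 CPM in the young adult and 684.4, 895.2, 906.0 and 1072 CPM in the aged libraries. Aged replicate 1 lay within the young adult range, and the other 3 aged libraries above it. The mean rose from 700.2 ± 69.2 to 889.5 ± 159.0 CPM (SD over 4 mice per age), and edgeR gave a log2FC of 0.35 (SE 0.108, 95% interval 0.13 to 0.57) with an adjusted p of 0.0216. The call was the least stable of the 3: without young adult replicate 1, 2 or 4 or aged replicate 2, 3 or 4, 1 at a time, the adjusted p was 0.0519, 0.0513, 0.0804, 0.0525, 0.0513 and 0.0784, while the log2FC stayed at 0.26 to 0.46 over all leave-one-out fits. Itm2b lies at chr14:73566774-73622874 on the minus strand.

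**Figure D3:**
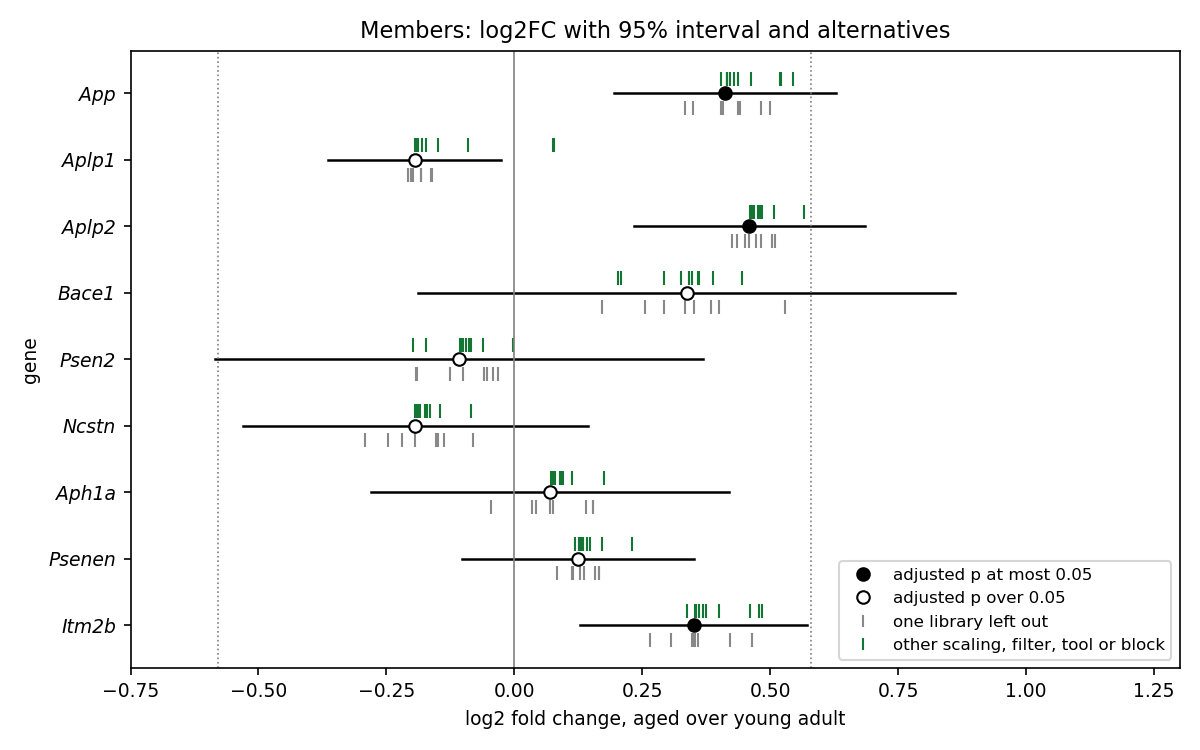
Aged over young adult log2FC of each member with its 95% interval from edgeR, with small ticks for each fit that leaves out 1 library (grey) and each other scaling, filter, tool or block (green). The dotted lines mark an absolute log2FC of 0.58. Filled points (App, Aplp2, Itm2b) passed an adjusted p of 0.05, and the ticks cross 0 for Aplp1 (0.08 with quantile normalization) and Aph1a (-0.04 without 1 library).

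App and Itm2b followed each other across the libraries. Over the 8 libraries their log2 CPM had a Pearson r of 0.95, and r was 0.93 for the deviations from the age means, a description over libraries in which both genes share depth and RNA. Counts of Itm2b per count of App were 1.39 ± 0.073 in young adult and 1.33 ± 0.076 in aged libraries, which overlapped. Among 2713 genes with a mean count over 50, those whose log2 CPM was most like that of App were Mllt11 (r = 0.987), Gad1 (0.984), the enzyme that makes GABA, and Serinc1 (0.973). For Itm2b they were Cnbp (0.975), Ghitm (0.961) and Gad1 (0.959). In the same edgeR fit Mllt11 had a log2FC of 0.42 (adjusted p = 0.013), Gad1 of 0.75 (0.0039) and Serinc1 of 0.87 (6.3e-04).

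Levels of different genes were set side by side as CPM per kb of coding sequence. Since each direct RNA read is one molecule, reads need not scale with length, and the order depends on the division: in young adult libraries App had 505.3 and Psenen 181.9 CPM, but 224 and 600 CPM per kb. In the young adult libraries, on the per kb scale, Aplp1 stood highest at 1181 ± 48.6, before Itm2b at 877 ± 86.8, Psenen at 600 ± 50.9 and App at 224 ± 26.2 CPM per kb. On the same scale Aph1a at 74.7 ± 17.2 and Aplp2 at 71.9 ± 5.61 CPM per kb did not differ beyond their spread. Ncstn stood at 30.9 ± 5.78 CPM per kb, and Psen2 at 19.6 ± 3.05 and Bace1 at 16.0 ± 2.74 CPM per kb were again within each other's spread. In the aged libraries Itm2b at 1115 ± 199 and Aplp1 at 1032 ± 31.2 CPM per kb were within their spread only after division by length, since undivided Aplp1 had 2024 ± 61.3 and Itm2b 889.5 ± 159.0 CPM. Per kb Aplp2 stood at 98.8 ± 5.76 beside 80.1 ± 9.46 CPM per kb for Aph1a (SD, n = 4 each). Per kb of the whole canonical transcript the young adult order was the same except that Aplp2 (43.7) stood above Aph1a (33.8). App reads outnumbered Bace1 reads, with 16.4 to 29.2 App counts per Bace1 count in young adult and 18.6 to 40.6 in aged libraries.

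The annotated length of the 3′ untranslated region separated the members by log2FC into a higher and a lower set. The 4 members with the longest regions, App (5649 bases), Bace1 (4583), Aplp2 (1317) and Itm2b (835), had log2FC of 0.34 to 0.46. Among these Bace1 did not pass edgeR's test, and the region of Itm2b was shorter than the median of the tested genes, 1111 bases. The 5 members with the shortest, Aph1a (714), Ncstn (664), Psen2 (572), Psenen (343) and Aplp1 (317), had log2FC of -0.20 to 0.12. The tested genes as a whole showed a like pattern: their median log2FC was -0.24, -0.08, 0.16, 0.24 and 0.08 over 5 bins of equal size from the shortest to the longest region (Spearman rho 0.28 across 9349 genes, which are not independent replicates). The length was chosen after the values of the members were seen, it is that of 1 annotated transcript per gene, and its part in the results was not tested. Over the tested genes the length of the whole transcript showed a weaker pattern of the same kind, with medians of -0.15, -0.02, 0.10, 0.11 and 0.04 over 5 bins (rho 0.13). GC content had a rho of 0.03. Mean count had a rho of -0.12, with medians of 0.11, 0.09, 0.04, -0.05 and -0.12 from the least to the most counted bin.

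**Figure D4:**
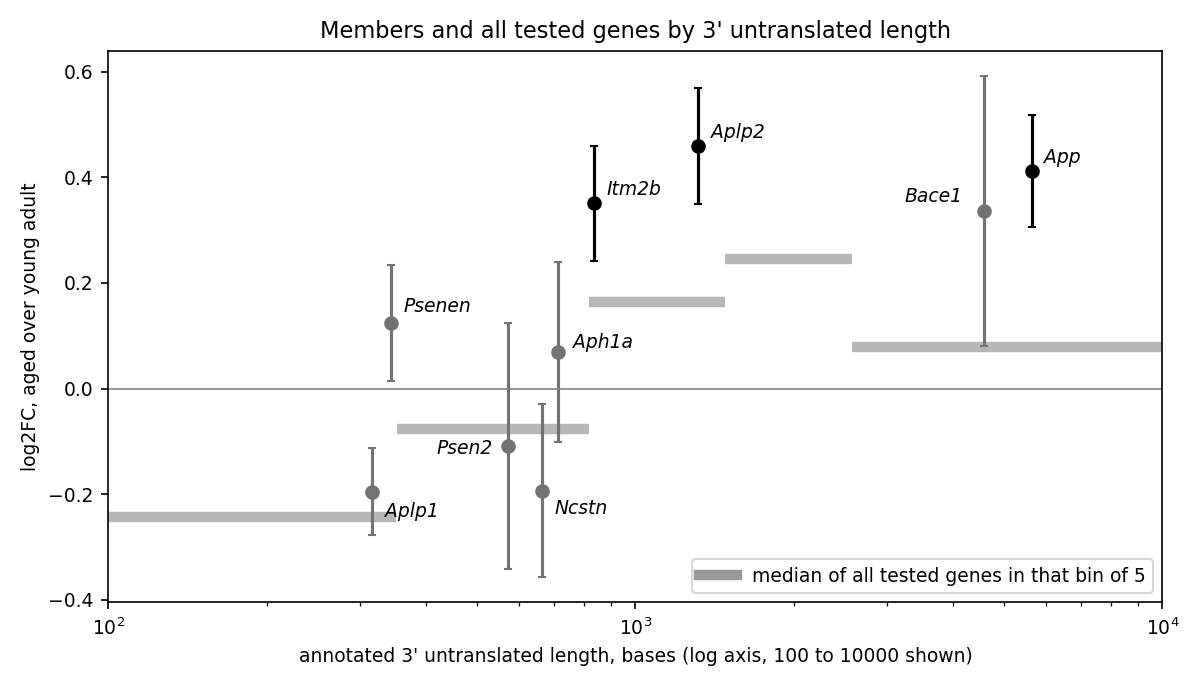
Aged over young adult log2FC of the members (points, with SE, black where the adjusted p was at most 0.05) against annotated 3′ untranslated length on a log axis, with grey bars for the median log2FC of all tested genes in each of 5 length bins. Members with 835 bases or more had log2FC of 0.34 to 0.46 and those with 714 bases or fewer had -0.20 to 0.12.

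Cell type markers also differed between the ages, counted here at an adjusted p of at most 0.05 with no fold minimum. By this rule 12.3 percent of all tested genes rose and 9.42 percent fell. With the fold limit added these shares were 10.3 and 4.17 percent. Past the fold limit as well were 2 neuronal, 2 oligodendrocyte and 2 microglial markers, all higher. So were the 3 astrocyte markers that rose and the 1 that fell, and all 5 erythroid genes, but no endothelial or choroid plexus marker. Of 8 neuronal markers 6 rose and 1 fell, with a summed level of 2568 to 2673 CPM in young adult and 3095 to 3351 CPM in aged libraries. Of 8 oligodendrocyte markers 6 rose and none fell (2070 to 2633 against 2873 to 3726 CPM), and of 8 tested microglial markers, of 10 listed, 4 rose and none fell (755 to 830 against 948 to 1190 CPM). Of 7 tested astrocyte markers 3 rose and 1 fell, and their sum overlapped between the ages. All 5 erythroid genes fell (6090 to 10032 against 3350 to 6283 CPM), 1 of 2 tested endothelial and 1 of 3 tested choroid plexus markers fell, and the 1 tested marker of oligodendrocyte progenitors did not pass. No listed marker was at 0 in every library, and Cx3cr1 was below the 3-count limit on average. App, Aplp2 and Itm2b are expressed in several of these cell types, and the part of the markers' change in that of the members was not tested.

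Genes that act with the members were taken from 9 lists of 84 genes in all, of which 61 were tested. Of these 11 rose and 5 fell at an adjusted p of at most 0.05. Over all tested genes 12.3 percent rose and 9.42 percent fell by this rule, shares that also apply to the counts per list below. The median log2FC of the 61 genes was 0.10 and 37 were positive. All 11 that rose, and 3 of the 5 that fell, also passed the fold limit, beside 10.3 and 4.17 percent of the tested genes.

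Among the other processing enzymes no gene passed. Adam10, the main α-secretase of neurons and the only tested gene of 3, was near the depth limit at 1 to 6 counts in young adult and 4 to 12 counts in aged libraries (log2FC 0.86, adjusted p = 0.206). Of 3 tested subunits outside the members none passed.

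Itm2c (BRI3), the close relative of Itm2b that also binds App, rose with a larger log2FC than any member. It was counted at 589.6, 603.9, 575.0 and 614.1 CPM in the young adult and 1132, 957.5, 948.2 and 845.3 CPM in the aged libraries. No aged library came near the young adult range, and aged replicate 1, low for App and Itm2b, was the highest here. The log2FC was 0.70 (SE 0.093, adjusted p = 6.8e-06) and stayed at 0.63 to 0.81 in all alternatives. Itm2a, the remaining relative, had a log2FC of 0.06 (adjusted p = 0.871).

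Of 11 tested regulators of the secretases 3 rose and none fell. Rtn3, a reticulon that binds and restrains Bace1, was counted at 146.5, 170.0, 175.5 and 141.9 CPM in the young adult and 210.3, 356.6, 382.6 and 417.3 CPM in the aged libraries. Its log2FC of 1.13 (SE 0.148, adjusted p = 6.0e-06) held in all 19 alternatives. Tmed2, a cargo receptor of the early secretory pathway, rose with a log2FC of 0.62 (adjusted p = 0.020). Gga3, which carries Bace1 to lysosomes, rose with a log2FC of 0.79 (adjusted p = 0.038). The last pair was less stable. Tmed2 lost the call in 6 of 19 alternatives, among them the fits without young adult replicate 1 or aged replicate 2 or 4. Gga3 lost it in 9 of 19. Among these were the fits without any 1 of young adult replicates 2, 3 and 4 and aged replicates 1, 2 and 3. The adjusted p of Tmed2 and Gga3 went up to 0.095 and 0.144 over the alternatives.

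Of 10 tested adaptors of the App tail, which bind at or near the motif shown above, none rose. Apbb3 fell, from 62.7 ± 3.29 to 46.2 ± 5.96 CPM (log2FC -0.47, adjusted p = 0.036). This call was lost in 12 of 19 alternatives, among them the fits without young adult replicate 1, 3 or 4 or aged replicate 2, 3 or 4, with adjusted p up to 0.157. Of 13 tested sorting genes only Vps26b, a retromer subunit, passed, and rose from 15.3 ± 4.74 to 34.6 ± 5.03 CPM (log2FC 1.14, adjusted p = 0.0024), in every alternative. Of 8 tested genes of amyloid-β clearance Ece1, a peptidase that degrades it, rose (5.72 ± 1.23 to 14.0 ± 7.81 CPM, adjusted p = 0.043). Ece1 was near the depth limit, at 3 to 6 counts in young adult and 7 to 20 counts in aged libraries, the most in aged replicate 3. The lipid transporter Abca7 fell (34.9 ± 8.11 to 20.4 ± 7.79 CPM, log2FC -0.85, adjusted p = 0.018). Ece1 lost the call in 9 of the 17 alternatives that gave it an adjusted p. Among them were the fits without any 1 of young adult replicates 1 to 4 or aged replicate 2 or 3. Abca7 lost it in 7 of 19, among them the fits without young adult replicate 1 or 3 or aged replicate 2, 3 or 4. The adjusted p of Ece1 and Abca7 went up to 0.208 and 0.091 over the alternatives.

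Of 6 tested γ-secretase substrates 2 rose and 1 fell, all at low counts. Epha4, an ephrin receptor, fell from 11.9 ± 4.66 to 3.21 ± 1.41 CPM (log2FC -1.96, adjusted p = 0.0033). Sdc3, a syndecan of axons, rose from 2.62 ± 2.17 to 12.2 ± 7.37 CPM (log2FC 2.05, adjusted p = 0.011), and missed the threshold with quantile normalization (adjusted p = 0.0526 with DESeq2 and 0.0547 with limma-voom). Nectin1, an adhesion protein, rose from 12.5 ± 5.31 to 25.5 ± 8.90 CPM (log2FC 0.95, adjusted p = 0.040). This call was lost in 8 of the 18 alternatives that gave it an adjusted p, which went up to 0.187. Among them were the fits without young adult replicate 1, 2 or 3 or aged replicate 2 or 3.

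Of 7 tested Bace1 substrates 3 rose and 2 fell. Sez6l rose from 15.1 ± 3.42 to 32.5 ± 8.67 CPM (log2FC 1.09, adjusted p = 0.0041) and the adhesion molecule L1cam from 18.3 ± 1.91 to 33.3 ± 8.11 CPM (log2FC 0.91, adjusted p = 0.0085), a call that L1cam lost with DESeq2 on quantile-normalized counts (adjusted p = 0.086). Cntn2 had at most 3 counts in any young adult library, 6 in all, against 40 in the aged libraries, a ratio of 5.34 after scaling (95% counting interval 2.25 to 15.4). It passed edgeR's test (adjusted p = 0.005) but not limma-voom with quantile normalization (adjusted p = 0.100). Chl1, a relative of L1cam, fell from 10.2 ± 2.21 to 3.67 ± 1.97 CPM (log2FC -1.43, adjusted p = 0.019), a call lost without young adult replicate 1 (0.0512) or aged replicate 4 (0.0616) and with DESeq2 on raw counts (0.0943). Sez6l2, relative of Sez6l and the most abundant gene of the list, was the other that fell, from 680.0 ± 62.4 to 557.9 ± 20.3 CPM (log2FC -0.29, adjusted p = 0.021). Unlike the other substrates named here, Sez6l2 was not run through the alternatives. In the main fit Sez6l and Sez6l2 moved in opposite directions, and the substrates did not move one way as a list.

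**Figure D5:**
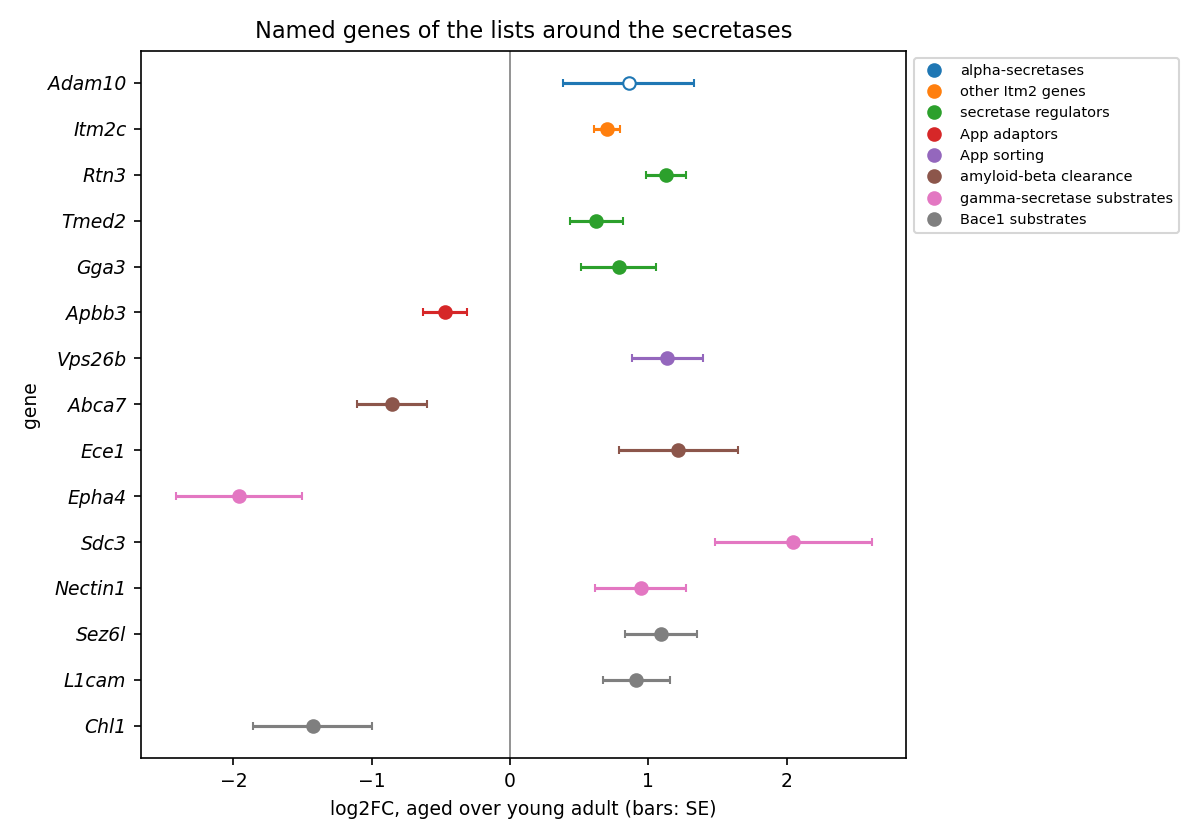
Aged over young adult log2FC with SE of the genes named from the lists around the secretases, coloured by list, filled where the adjusted p was at most 0.05 and open for Adam10. Cntn2 is left out because no young adult library held more than 3 counts, and the values run from -1.96 for Epha4 to 2.05 for Sdc3.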

How the data were processed

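RNA of 4 young adult and 4 aged hemispheres was sequenced on a MinION. The deposited values are raw counts per gene, which the authors made by mapping reads to GRCm39 (minimap2 2.24, per the submitters' processing notes) and counting them with featureCounts. Strand and overlap settings are not given in the sources used here. The labels name a poly(A) library kit where the methods describe direct RNA; the methods were followed. Symbols, positions and lengths come from GENCODE vM39, matched by identifier for 22281 of 22430 genes. The filter kept genes whose counts averaged over 5, and the test was that of edgeR 4.0.16 (R 4.3.3; TMM, quasi-likelihood, age as the only term), with Benjamini-Hochberg adjustment over all 9375. DESeq2 1.42.0 and limma 3.58.1 (voom) served as alternatives. Log2 CPM for correlations used a prior count of 2. The tests were tested on simulated data. Near-identical copies were searched with BLAST 2.17.0. Intervals cover counting or library error only.

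The members and lists were chosen with earlier results of these data known. Named were all members and, per list, up to 4 genes with an adjusted p of at most 0.05 by smallest p, or else the most abundant tested gene. Itm2a, Sez6l2 and the genes overlapping members were added after their values were seen. For App and Itm2b the 3 genes of highest Pearson r were named. The sample labels name no pairing by replicate number, and young adult and aged libraries of the same number had correlations of deviations of -0.160 to 0.065. No block was therefore used in the main fit. Sequences of transcripts were those of GENCODE vM39, which is annotated on GRCm39. Protein sequences are not used here. The alternatives were other scalings, filters, tools, a replicate block and each library left out. A gene that the naming rule gives is not reported here.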

Additional observations from a re-analysis of the deposited data

Results flagged for a closer look

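Of 48 groups of 4 libraries examined for a value far from the rest, 2 had a gap too wide for the range of the group, and chance gives about 1 in 20. Young adult replicate 2 had 573152 total counts, far under the next lowest young adult library with 818963. In aged replicate 1 there were 40.6 App counts per Bace1 count, against 18.6 to 21.8 in the other 3 aged libraries. That value rests on 9 Bace1 counts.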

How the results depend on the processing

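App and Aplp2 passed the test in all 19 alternatives, and no member was called changed in any. The members with an adjusted p of at most 0.05 numbered 3, and 2 to 4 when 1 library was left out. Aplp1 turned from -0.20 to a positive value with quantile normalization (0.0755 with DESeq2, 0.0765 with limma-voom), and Aph1a to -0.0449 without young adult replicate 2, with leave-one-out values of -0.0449 to 0.154; the cause was not tested. Pathway genes passing numbered 16 and fell to 9 with DESeq2 on raw counts, 8 with DESeq2 on quantile-normalized counts and 9 with more than 5 counts in every library (8 to 19 leaving out 1 library). Changed genes numbered 1359, against 834 with DESeq2 on raw counts, 819 with DESeq2 on quantile-normalized counts and 989 to 1594 leaving out 1 library. Of the changed genes 71.2 percent were higher in aged libraries, 84.5 percent with library sizes alone and 59.2 percent with limma-voom and quantile normalization together. Library sizes alone moved the median log2FC of all genes to 0.10. Mllt11 had an r of 0.987 with App, 0.970 for deviations from the age means and 0.977 to 0.995 leaving out 1 library, and in 4 of these 9 alternatives r moved by more than the SD of the leave-one-out values. With the replicate block 3 members passed (App log2FC 0.40, adjusted p = 0.0034) and 1308 genes were changed. Among the named genes Apbb3 lost its call in that fit (adjusted p = 0.059). The sample labels do not say whether equal replicate numbers mark a shared origin. Among the members that did not pass the test, only the intervals of Bace1 and Psen2 reached past the fold limit. These genes had the fewest counts of the members (means of 23.75 and 20.75), and the part of depth was not tested.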
